A study of Mus musculus with 21 samples.

Results

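Rab GTPases are the largest branch of the Ras superfamily and mark the membranes of the cell, each Rab being found on its own set of compartments. The genes described here are the protein-coding genes whose symbol is Rab followed by a number, with or without a letter, and whose TPM (a transcript level corrected for transcript length and scaled to the same sum in every library) averaged at least 1 over the 21 libraries. This left 43 of the 58 genes with such a symbol, among 23570 genes in all. The genes just inside the limit were Rab3a at 1.14 TPM, Rab30 at 1.16 TPM and Rab4a at 1.24 TPM, and the gene just outside it was Rab33a at 0.803 TPM.

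A Rab protein cycles between a GTP-bound form on a membrane and a GDP-bound form. Guanine nucleotide exchange factors (GEFs) load it with GTP, GTPase-activating proteins (GAPs) end the active state, and GDP dissociation inhibitors extract it from the membrane by its prenyl anchors. The active form recruits effectors that move, tether or fuse vesicles. In macrophages Rabs carry a phagosome or endosome from its early state to the lysosome, take Toll-like receptors to and from the places where they signal, and serve cytokine secretion.

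The libraries were made from CD11b+ cells of the mouse peritoneal cavity, taken without an eliciting agent from C57BL/6 animals and cultured overnight. The wild-type cells gave 9 libraries, and cells labelled Lum-/- (lumican) and Bgn-/- (biglycan, given as Bgn-/0 or Bgn-/-) gave 6 each. Cells received no stimulus, LPS (a Toll-like receptor 4 ligand, 100 ng/mL for 6 h) or CpG DNA (a Toll-like receptor 9 ligand, 1 µM for 6 h). In wild type each of these was combined with no protein, recombinant lumican or recombinant biglycan, in the Lum-/- label with no protein or lumican, and in the Bgn-/- label with no protein or biglycan; the protein was given at 10 µg/mL for 1 h before LPS or CpG, and the labels give no dose or time for protein alone. Lumican and biglycan are extracellular matrix proteoglycans. Each combination has 1 library, the labels state 10 mice without tying wells to animals, and genotype and cell preparation cannot be told apart. The p-values below therefore rest on the spread left between libraries once a level per genotype-and-protein combination and a shift per stimulus are fitted. That spread may be partly technical.

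Checks left some labels open. The lumican transcript was at 12.0 and 14.1 TPM in the LPS libraries labelled Lum-/-, against 0.718 to 1.40 TPM in wild type with LPS, and the biglycan transcript reached 3.49 TPM in a library labelled Bgn-/-. Whether the alleles still give RNA is not stated, so these levels cannot decide the genotypes, which are called labels here. The unstimulated library labelled Lum-/- without protein and the unstimulated library labelled Bgn-/- with biglycan differed by a median of 0.0507 on the log2 scale over 689 genes of at least 200 TPM, the closest of 210 pairs of libraries. Both had Arg1 (arginase) at 688 and 601 TPM, where no other library exceeded 67.2 TPM, and 40241 and 40231 transcripts above 0, where the others had 50990 to 59621. They were left out of the tests, which used 19 libraries (5 unstimulated, 7 with CpG and 7 with LPS), and counts with all 21 are given where they differ. The untreated wild-type library had the mast cell protease Cma1 at 1.03 TPM, where the 8 other wild-type libraries had at least 20.5 TPM. The macrophage markers were present: 9 of 9 had a median of at least 1 TPM.

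With LPS the median gene was lower in TPM. Whether this was a shift of the scale or a fall of most transcripts was not tested. The 11774 genes tested were those averaging 1 TPM or more. Their median fell by 0.71 in log2(TPM + 1) with LPS, and the summed TPM of the 43 Rab genes was 2836 to 2987 in LPS libraries against 3176 to 3596 without stimulus. A second reading therefore divided each library by its median-of-ratios factor, which was 0.619 to 0.749 in LPS libraries and 1.12 to 1.27 in the others, and is called the change relative to the median gene. Summed markers, over all 21 libraries, moved with LPS as well. The macrophage list went from 29642 to 44088 TPM without stimulus to 11577 to 15364 TPM, with its gene Lyz2 carrying most of it. The mast cell list went from 5.74 to 110 TPM to 141 to 219 TPM, with its gene Hdc carrying most of it. The neutrophil list went from 108 to 162 TPM to 318 to 398 TPM, with Ly6g at 0.302 TPM or less. Their part in the Rab differences was not tested, and in bulk libraries fewer cells of a type and less RNA per cell cannot be told apart.

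The promoters of 4 genes are shown: Rab20, Rab5a and Rab21, the 3 of the 8 genes higher with LPS on both scales that held the sequence CACGTG, chosen after the search, and Rab5b, the close relative of Rab5a that was lower. Each line is the 250 bases before the transcription start, 5′ to 3′ on the gene's strand, from RefSeq on GRCm38.p6, and capitals mark CACGTG, the E-box of bHLH factors such as Tfeb and Myc. Rab20 lies on the minus strand (chr8:11478641-11478890), Rab5a on the plus strand (chr17:53478984-53479233), Rab21 on the minus strand (chr10:115315592-115315841) and Rab5b on the minus strand (chr10:128696269-128696518).
Rab20: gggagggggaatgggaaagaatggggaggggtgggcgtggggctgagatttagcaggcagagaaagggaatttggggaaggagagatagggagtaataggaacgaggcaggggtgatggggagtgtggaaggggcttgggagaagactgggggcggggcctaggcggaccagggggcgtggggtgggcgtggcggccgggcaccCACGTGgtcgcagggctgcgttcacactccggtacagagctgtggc
Rab5a: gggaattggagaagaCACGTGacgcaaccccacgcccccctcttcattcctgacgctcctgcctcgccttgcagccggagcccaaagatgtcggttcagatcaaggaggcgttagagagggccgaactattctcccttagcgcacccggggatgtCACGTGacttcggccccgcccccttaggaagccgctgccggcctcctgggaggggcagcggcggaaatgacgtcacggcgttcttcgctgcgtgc
Rab21: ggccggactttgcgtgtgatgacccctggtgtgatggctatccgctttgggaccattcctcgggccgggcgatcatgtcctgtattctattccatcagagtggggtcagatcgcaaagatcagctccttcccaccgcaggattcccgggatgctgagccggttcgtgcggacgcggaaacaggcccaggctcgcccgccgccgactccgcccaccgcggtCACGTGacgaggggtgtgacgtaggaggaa
Rab5b: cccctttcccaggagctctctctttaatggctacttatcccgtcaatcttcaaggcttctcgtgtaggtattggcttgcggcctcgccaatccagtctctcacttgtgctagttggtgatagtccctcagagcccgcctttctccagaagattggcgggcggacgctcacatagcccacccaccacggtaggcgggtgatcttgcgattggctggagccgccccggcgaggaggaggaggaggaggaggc
The searched window ran from 250 bases before to 50 bases after the start, on both strands, and 38 of the 43 genes had an entry. CACGTG was present in 6 of 38 genes (15.8%; Rab5a, Rab20, Rab21, Rab23, Rab24 and Rab27a) against 8.09% of the 27025 genes in the table. Of the genes higher with LPS 3 of 8 held it, and of those lower 3 of 27. The kB-type sequence, GGGA and TTCC spaced by 2 bases, was in 0 of 38 (1.63% of all genes), the AP-1 sequence TGANTCA in Rab34 alone (8.97%) and an ISRE-type sequence, GAAA and GAAA spaced by 2 bases, in Rab19 alone (3.99%). Matches to different sequences fell in different genes. These are matches of letters, not binding sites.

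Levels differed widely within every role. Among the genes of the ER and Golgi, Rab1a averaged 224 TPM, Rab18 (lipid droplets and ER) 120 TPM, Rab1b 102 TPM, Rab2a 94.2 TPM and Rab6a (retrograde Golgi transport) 69.1 TPM. Rab43 followed at 25.5 TPM, Rab33b at 14.1 TPM, Rab34 at 9.88 TPM, Rab2b at 7.57 TPM and Rab6b at 4.58 TPM, and Rab39 at 2.00 TPM, Rab19 at 1.34 TPM and Rab30 at 1.16 TPM closed the group. The early endosome genes were all above 20 TPM, with Rab5c at 197 TPM, Rab20 at 78.4 TPM, Rab5a at 77.3 TPM, Rab5b at 64.3 TPM, Rab31 at 56.8 TPM, Rab21 at 40.3 TPM and Rab22a at 20.6 TPM.

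The highest Rab transcript of these cells was Rab7, the Rab of late endosomes and lysosomes, at 400.1 TPM. The others of its group were Rab12 at 84.6 TPM, Rab24 at 42.8 TPM, Rab7b at 38.4 TPM and Rab9 at 29.8 TPM. Among recycling Rabs Rab11a stood at 379 TPM, Rab14 at 122 TPM, Rab11b at 111 TPM, Rab4b at 53.1 TPM, Rab35 at 51.0 TPM and Rab4a at 1.24 TPM. Rab32, a Rab of lysosome-related organelles, was at 275 TPM and Rab29 of the same group at 21.9 TPM. The secretory group spanned Rab10 at 134 TPM, Rab8b at 89.6 TPM, Rab8a at 73.1 TPM, Rab40c at 11.9 TPM, Rab3d at 10.1 TPM, Rab13 at 8.70 TPM, Rab27a at 7.25 TPM and Rab3a at 1.14 TPM, and the 2 ciliary genes were Rab28 at 17.4 TPM and Rab23 at 2.24 TPM.

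**Figure D1:**
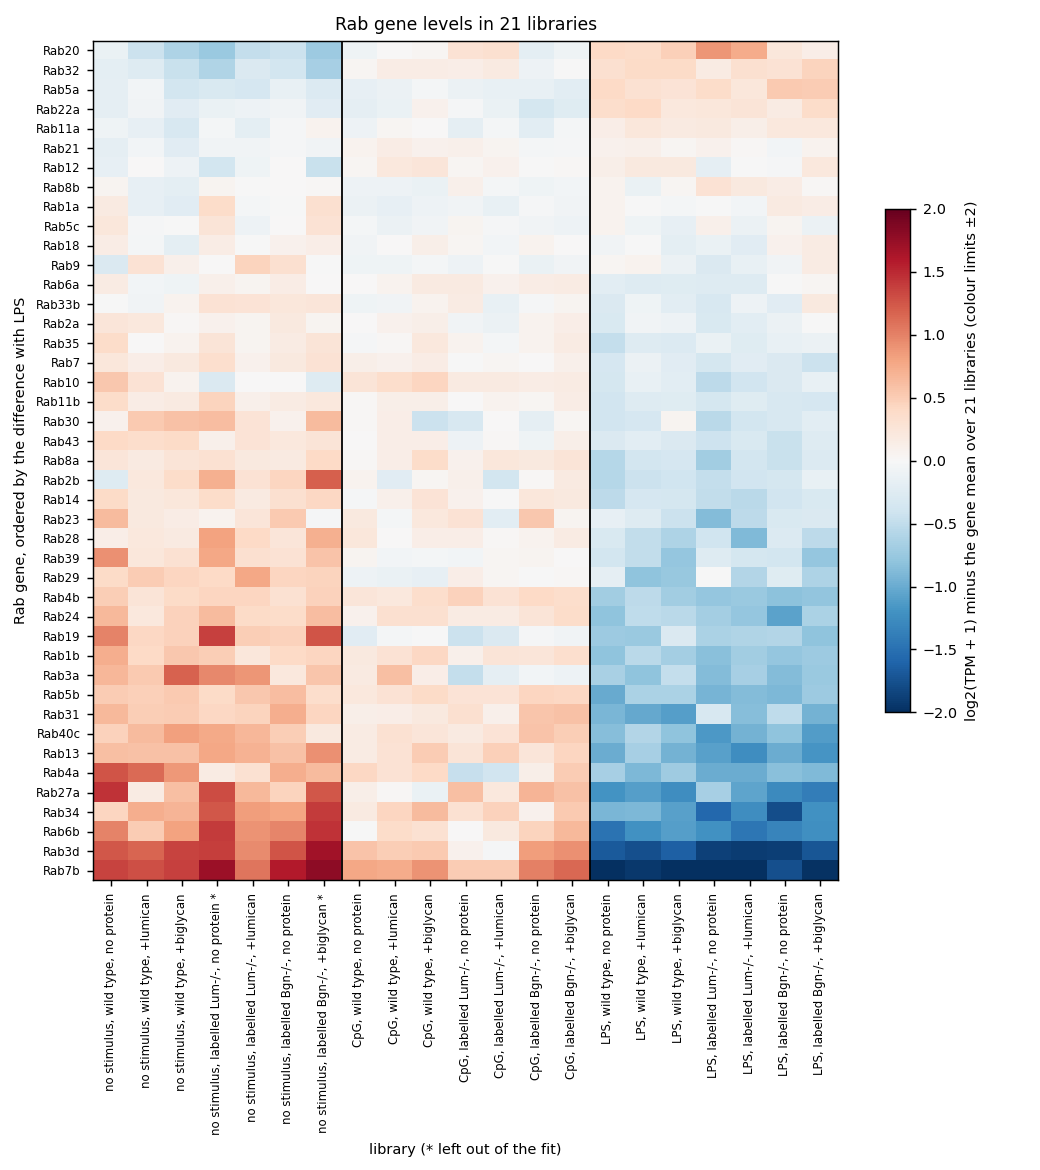
Level of each of the 43 Rab genes (rows, ordered by the LPS difference) in each of the 21 libraries (columns, by stimulus, with an asterisk on the 2 left out of the tests), coloured by log2(TPM + 1) minus the gene's mean over all libraries. The LPS libraries on the right are blue in most rows, deepest in Rab7b and Rab3d, and red at the top, in Rab20, Rab32 and Rab5a.

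With LPS 8 Rab genes rose and 16 fell on both scales, while for the other 19 the reading depends on the scale. The share of all genes that passed on both scales was not computed, and shares are given for each scale. In TPM, 39 of 43 passed an adjusted p of 0.05 in limma's moderated test (8 higher or 18.6%, 31 lower or 72.1%), against 14.4% of all genes tested higher and 72.1% lower, so the Rab shares were near those of all genes. The median Rab difference was -0.63 on the log2(TPM + 1) scale, beside -0.71 for all genes. Relative to the median gene, 22 Rab genes were higher and 16 lower, against 39.4% and 38.8% of all genes, with medians of 0.14 and 0.01. The TPM ranges of the LPS and unstimulated libraries did not overlap for 5 genes that were higher and 28 that were lower, against 10.2% and 61.8% of all genes. Rab3a, Rab4a, Rab6b, Rab19 and Rab30 averaged under 1 TPM with LPS (0.869 TPM at most) and passed the filter on low values through the other libraries, so that their falls are given as a description. Among the other 38 genes 8 rose and 26 fell in TPM, 12 of the falls on both scales.

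Among early endosome genes 4 of 7 rose (Rab20, Rab5a, Rab22a and Rab21) and 2 fell (Rab31 and Rab5b), on both scales. Of all genes 14.4% rose and 72.1% fell in TPM, and 39.4% and 38.8% relative to the median gene. Rab20, a Rab of maturing phagosomes, was at 68.0, 55.2 and 48.5 TPM in unstimulated wild type without protein, with lumican and with biglycan. It was at 53.3 TPM in the Lum-/- label with lumican and 55.4 TPM in the Bgn-/- label without protein. LPS libraries ran from 82.1 to 139 TPM with a median of 98.9 TPM, so that every LPS library exceeded every unstimulated one. The rise was 0.85 ± 0.09 (SE) in log2(TPM + 1), with an adjusted p of 7.7e-07 in limma, and 1.67 relative to the median gene. Part of its sequence is shared: 24.0% of the 31-base words of Rab20 transcripts also occur in other genes, E230013L22Rik sharing most, so its reads could be split between genes.

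Rab5a, the Rab that drives fusion of early endosomes, had 66.9, 72.8, 58.2, 60.0 and 68.4 TPM in the same 5 unstimulated libraries. With LPS it had 89.1 to 109 TPM and a median of 97.8 TPM, above all of them. The difference was 0.58 ± 0.06 in log2(TPM + 1), adjusted p of 7.8e-07 in limma, and 1.40 relative to the median gene. Its relative Rab5b had 85.2, 83.3, 86.3, 87.2 and 92.6 TPM unstimulated and 29.1 to 38.3 TPM (median 32.3) with LPS, with no overlap in the opposite direction. It fell by 1.35 on the log2 scale (SE 0.06, limma adjusted p of 1.1e-10) and by 0.53 relative to the median gene. The third family member, Rab5c, was at 183 to 230 TPM unstimulated and 176 to 211 TPM with LPS and did not pass in TPM (-0.07, limma adjusted p of 0.20), although its scaled value was 0.76.

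Rab22a, which acts on early and recycling endosomes, had 17.9, 19.3, 17.2, 18.9 and 19.3 TPM unstimulated and 23.0 to 27.0 TPM with LPS (median 24.4), without overlap. The rise of 0.41 ± 0.08 (limma adjusted p of 0.00019) came from 1 of its transcripts. ENSMUST00000109110.3, of 849 bases, had a median of 2.11 TPM unstimulated and 7.86 TPM with LPS, while the 7155-base ENSMUST00000029024.9 had 16.4 and 16.2 TPM. The share of the short form was 7.19% to 12.2% of Rab22a without stimulus and 27.4% to 38.7% with LPS, and the most abundant transcript alone gave a difference of -0.03. Rab31 of the same branch went the other way, with 71.7 to 87.2 TPM unstimulated and 23.8 to 42.0 TPM with LPS (-1.44 in log2(TPM + 1), -0.63 scaled). Rab21, which traffics integrins, rose by 0.16 (limma adjusted p of 0.011), a small change whose ranges overlapped (34.0 to 39.5 TPM and 38.5 to 43.1 TPM).

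The late endosome group held the deepest fall of all Rab genes, Rab7b. In macrophages Rab7b is known to send Toll-like receptors 4 and 9 towards degradation. It had 62.4, 60.0, 63.3, 51.1 and 73.9 TPM in the 5 unstimulated libraries and 2.33 to 6.33 TPM with LPS (median 4.66). It fell by 3.55 in log2(TPM + 1) (SE 0.09, limma adjusted p of 2.1e-12) and by 2.82 relative to the median gene, lower in 5 of 5 pairs of libraries of the same genotype and protein. The 2 unstimulated libraries left out of the test stood at 80.3 and 85.0 TPM, further from the LPS values.

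Rab7 itself had 421 to 461 TPM unstimulated and 294 to 366 TPM with LPS, lower by 0.42 in TPM (limma adjusted p of 2.3e-06) but higher by 0.40 relative to the median gene. Its main transcript ENSMUST00000113600.9 had a median of 390.5 TPM and 234.2 TPM with LPS, while ENSMUST00000095048.5 went from 13.8 to 46.5 TPM; 18.4% of Rab7's words are shared, the pseudogene Rab7-ps1 sharing most. Rab12, which sends the transferrin receptor to lysosomes, rose by 0.16 (limma adjusted p of 0.026), a call that was lost without 5 of the 19 libraries in turn, all wild type (limma adjusted p up to 0.099). Rab24, linked to autophagy, went from 46.5 to 63.4 TPM to 18.7 to 27.8 TPM and fell on both scales, with 54.4% of its words shared, Prelid1 sharing most. Rab9 did not pass in TPM (-0.22, limma adjusted p of 0.061).

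**Figure D2:**
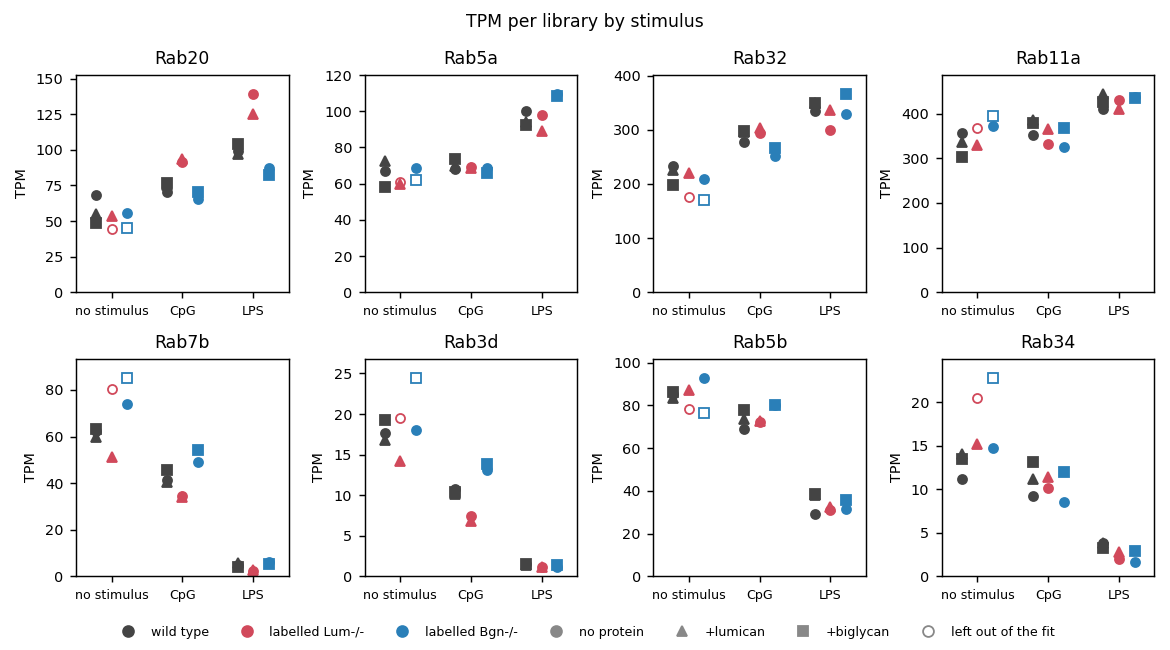
TPM of 8 Rab genes in every library, by stimulus, coloured by genotype label, with the marker shape giving the added protein and open markers the 2 libraries left out of the tests. The LPS libraries lie above all unstimulated ones for Rab20, Rab5a, Rab32 and Rab11a (upper row) and below them for Rab7b, Rab3d, Rab5b and Rab34 (lower row), with Rab7b at 2.33 to 6.33 TPM.

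The lysosome-related organelle genes split. Rab32, which serves melanosome-like organelles and pathogen vacuoles, had 234, 225, 197, 221 and 209 TPM unstimulated and 299.7 to 366 TPM with LPS (median 336), above all of them. The rise was 0.64 ± 0.06 (limma adjusted p of 1.8e-07), or 1.47 relative to the median gene. Rab29, known for its link to the kinase Lrrk2, had 27.5 to 36.4 TPM and 11.6 to 20.9 TPM with LPS, a fall of 1.01 in log2(TPM + 1) that was 0.22 and did not pass after scaling.

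Of the 6 recycling genes, Rab11a rose and the other 5 fell in TPM, where 14.4% of all genes rose and 72.1% fell. Rab11a, of the slow recycling endosome, had 357, 337, 303, 331 and 372 TPM unstimulated and 410.2 to 444 TPM with LPS (median 431). The difference was 0.34 ± 0.06 (limma adjusted p of 0.0001) and 1.16 relative to the median gene. Rab4a was near its floor: 3.75, 3.34, 2.61, 1.44 and 2.28 TPM unstimulated and 0 to 0.249 TPM with LPS, where both libraries labelled Lum-/- list it at 0. As a description, it fell by 1.67, and by 1.41 scaled. The pseudocount of 1 TPM shrinks the change of so low a gene on this scale. Rab4b fell on both scales (-1.10 and -0.29), with 62.7% of its words shared, Gm21983 sharing most. Rab11b (-0.49), Rab14 (-0.68) and Rab35 (-0.40) were lower in TPM and higher relative to the median gene (0.33, 0.14 and 0.41).

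Secretory Rabs had the lowest median of the 7 role groups, -1.40 in TPM and -0.81 relative to the median gene. Rab3d, a Rab of regulated secretion, had 17.7, 16.8, 19.2, 14.2 and 18.01 TPM unstimulated and 1.13 to 1.54 TPM with LPS (median 1.34), with no overlap. It fell by 2.97 (SE 0.10, limma adjusted p of 1.5e-11) and by 2.37 scaled. Rab27a, which docks lysosome-related granules at the plasma membrane, had 17.7, 6.73, 9.51, 9.83 and 8.36 TPM and 1.64 to 3.35 TPM with LPS (median 2.01). It fell by 1.87 (SE 0.19, limma adjusted p of 2.8e-07) and by 1.22 scaled. Rab13 (-1.60), Rab40c (-1.46) and, at under 1 TPM with LPS, Rab3a (-1.34) also fell on both scales.

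The remaining secretory genes were Rab8a, Rab8b and Rab10. Rab8a (-0.63) and Rab10 (-0.45), which takes Toll-like receptor 4 to the macrophage surface, were lower in TPM and higher relative to the median gene (0.18 and 0.37). Rab8b rose by 0.12 (limma adjusted p of 0.029), with overlapping ranges of 78.2 to 93.0 TPM and 81.7 to 109 TPM. That call was lost without 6 of the 19 libraries in turn, 3 of them wild type (limma adjusted p up to 0.097).

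No ER and Golgi gene rose in TPM and 11 of 13 fell, beside 14.4% and 72.1% of all genes. Relative to the median gene 6 rose and 5 fell, beside 39.4% and 38.8% of all genes. Rab6b had 8.07, 5.42, 6.92, 7.42 and 7.96 TPM unstimulated and 0.623 to 1.12 TPM with LPS (median 0.947). As a description, since it averaged 0.869 TPM with LPS, Rab6b fell by 2.15, and by 1.62 scaled. Rab34, linked to phagosome maturation and to cilia, had 11.1, 13.99, 13.5, 15.2 and 14.7 TPM and 1.64 to 3.83 TPM with LPS (median 2.90), a fall of 1.91 (SE 0.13, limma adjusted p of 7.7e-09) and of 1.23 scaled.

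Rab1b, Rab39 and, at under 1 TPM with LPS, Rab19 were the other ER and Golgi genes that fell on both scales (-1.16, -0.88 and -1.15 in TPM). Rab2a, Rab6a, Rab33b and Rab43 were lower in TPM by 0.24 to 0.63 and higher relative to the median gene, while Rab2b and Rab30 did not pass after scaling. Reads of Rab43, Rab2b, Rab33b and Rab6a could be split with other genes, since 74.8%, 59.6%, 22.6% and 21.3% of their words are shared. Rab1a (0.08) and Rab18 (-0.07) did not pass in TPM and were higher scaled (0.91 and 0.76). The 2 ciliary genes, Rab23 (-0.73) and Rab28 (-0.75), fell in TPM and did not pass after scaling.

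**Figure D3:**
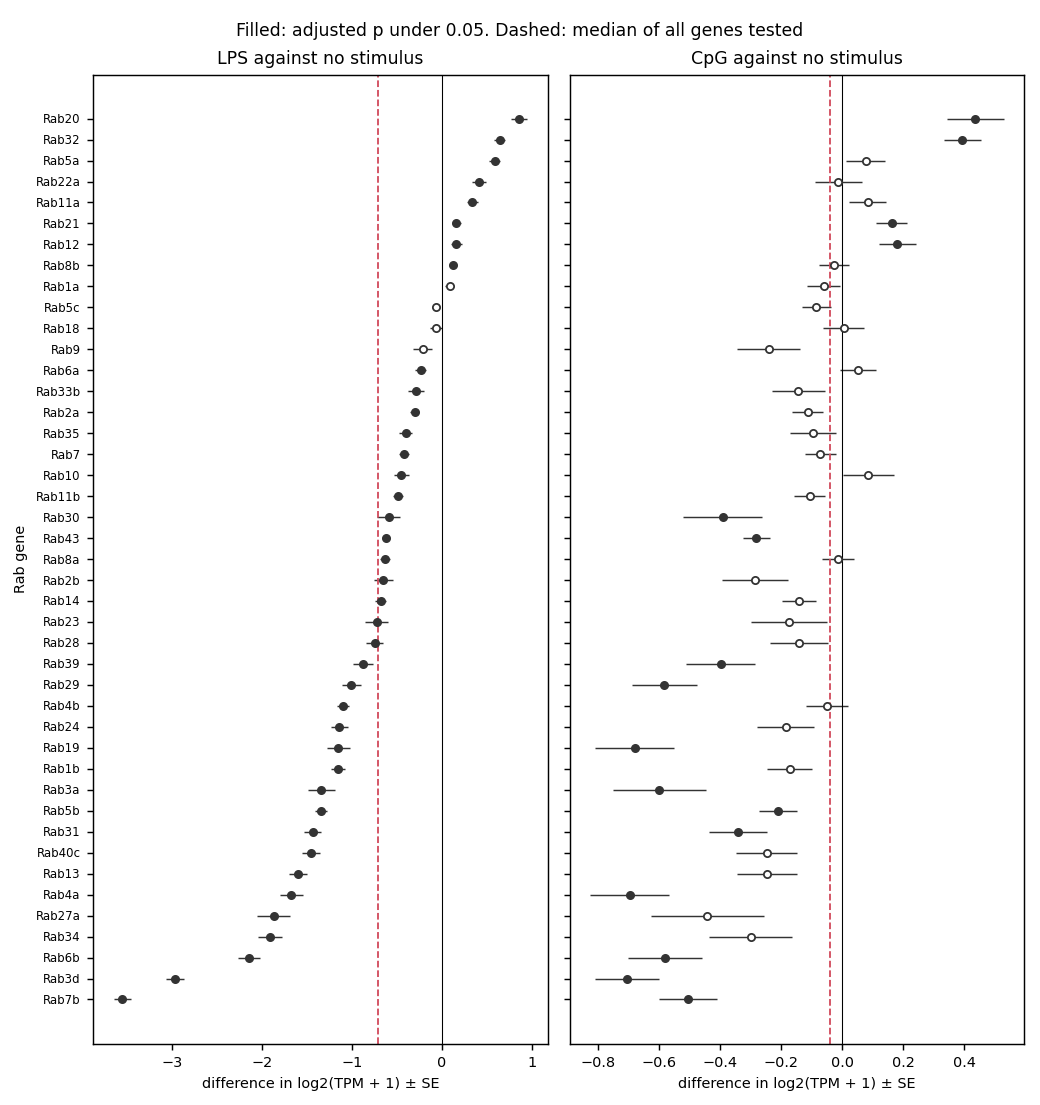
Difference in log2(TPM + 1) with its standard error for each of the 43 Rab genes, LPS on the left and CpG on the right, each against no stimulus; filled points passed an adjusted p of 0.05 and the dashed line is the median of all 11774 genes tested. The LPS differences run from -3.55 (Rab7b) to 0.85 (Rab20) around a gene median of -0.71, and the CpG differences from -0.71 (Rab3d) to 0.44 (Rab20).

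Ratios of close relatives within a library do not depend on the scale, and they shifted with LPS for the 7 pairs given first. Ratios of gene pairs in general were not examined. For single genes, 10.2% of all genes lay wholly above and 61.8% wholly below the unstimulated TPM range with LPS. Rab5a over Rab5b was 0.674 to 0.874 without stimulus, 0.818 to 0.983 with CpG and 2.41 to 3.45 with LPS. Rab1a over Rab1b was 1.36 to 1.94, 1.62 to 2.05 and 3.38 to 4.53 in the same order. In both of these pairs the LPS libraries lay apart from the others while the CpG range overlapped the unstimulated one.

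The same held for Rab8b over Rab8a (0.914 to 1.11 unstimulated, 0.886 to 1.26 with CpG, 1.48 to 2.48 with LPS) and for Rab11a over Rab11b (2.45 to 3.05, 2.91 to 3.28 and 4.48 to 5.07). Rab22a over Rab31 was 0.217 to 0.264 unstimulated, 0.203 to 0.362 with CpG and 0.573 to 1.07 with LPS. The widest shifts were those of Rab7 over Rab7b (6.16 to 8.24, 7.81 to 11.9 and 51.0 to 134) and of Rab6a over Rab6b (9.36 to 12.2, 12.6 to 21.8 and 51.7 to 95.5). For Rab6a over Rab6b the CpG range also lay above the unstimulated one. Its LPS ratios divide by Rab6b at 0.623 to 1.12 TPM, near the floor. Rab3a over Rab3d, both of which fell, showed overlapping ranges (0.0693 to 0.182 unstimulated and 0.0495 to 0.250 with LPS). Rab2a over Rab2b overlapped as well (10.01 to 19.03 unstimulated and 14.6 to 17.7 with LPS). Beside the 7 pairs, Rab5a over Rab5c was 0.291 to 0.377 unstimulated and 0.464 to 0.598 with LPS, without overlap. Rab4b over Rab4a has no LPS range, since Rab4a was listed at 0 in LPS libraries. With the 2 left-out libraries the unstimulated range reached up to 2.14 for Rab1a over Rab1b and down to 6.02 for Rab6a over Rab6b, and the unstimulated ranges of all 7 pairs still lay apart from the LPS ranges.

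**Figure D4:**
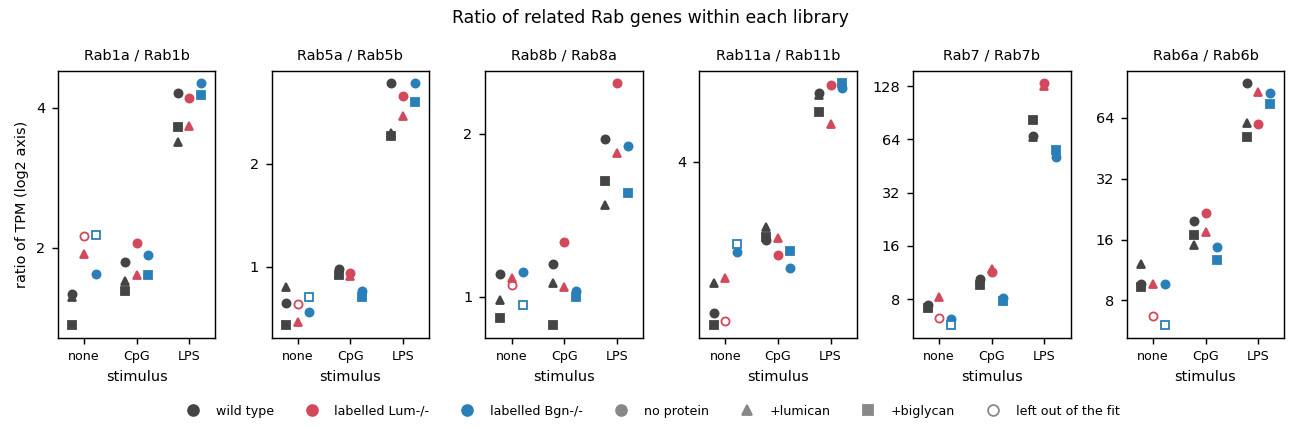
Ratio of the TPM of 2 related Rab genes in each of the 21 libraries by stimulus, on log2 axes, with colours and markers for genotype label and added protein and open markers for the libraries left out of the tests. The LPS libraries lie above the others in all 6 panels, with Rab5a over Rab5b between 2.41 and 3.45.

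CpG changed fewer Rab genes, and by less. Of 43, 4 rose and 12 fell (15.2% and 20% of all genes tested did so), with a median Rab difference of -0.14 beside -0.04 for all genes. Relative to the median gene 4 rose and 11 fell (17.8% and 17.3% of all genes), Rab30 no longer passing. By the same test, without the 5 genes that averaged under 1 TPM with LPS, 4 of 38 rose and 7 fell in TPM. Only Rab32 (251 to 304 TPM against 197 to 234 TPM) lay wholly above the unstimulated range and 7 genes wholly below it, against 7.04% and 9.79% of all genes.

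The genes that rose with CpG were Rab20, Rab32, Rab12 and Rab21. Rab20 had 65.3 to 93.3 TPM with CpG (median 75.2) and rose by 0.44 ± 0.09 (limma adjusted p of 0.0028), and Rab32 rose by 0.39 ± 0.06 (limma adjusted p of 0.0003). Rab12 (0.18, limma adjusted p of 0.034) and Rab21 (0.16, limma adjusted p of 0.027) were close to the threshold and lost the call without 8 and 7 of the 19 libraries in turn (limma adjusted p up to 0.12 and 0.095). The LPS and CpG comparisons share the unstimulated libraries, so they are not independent of each other.

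The largest falls with CpG were those of Rab3d and Rab4a. Rab3d had 6.81 to 13.8 TPM (median 10.3) and fell by 0.71 (SE 0.10, limma adjusted p of 0.00022). Rab4a fell by 0.70 (limma adjusted p of 0.0011) and Rab3a by 0.60 (limma adjusted p of 0.0081). Both were near the floor with CpG, at medians of 1.42 and 0.871 TPM. Rab29 and Rab6b each fell by 0.58 (limma adjusted p of 0.0011 and 0.0025). Rab19 fell by 0.68, a description only, since it averaged 0.900 TPM with CpG. Rab7b, at 34.2 to 54.4 TPM (median 41.3), fell by 0.51 (limma adjusted p of 0.0012); its CpG range overlapped the unstimulated one. Rab39, Rab30, Rab31, Rab43 and Rab5b fell by 0.21 to 0.40, and the calls of Rab30 and Rab5b were lost without 4 libraries and 1 library in turn (limma adjusted p up to 0.10 and 0.054). Rab30 averaged 0.963 TPM with CpG, so its fall is a description as well. With all 21 libraries 25 genes passed (37.7% of all genes did), and with no wild-type libraries 1 did (10.2% of all genes did). The fit without wild type kept few unstimulated libraries, the Lum-/- label with lumican and the Bgn-/- label without protein. It could therefore detect less.

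Set directly against CpG, LPS libraries were higher for 7 Rab genes and lower for 29 in TPM (12.3% and 75.5% of all genes), and higher for 24 and lower for 14 relative to the median gene (38.4% and 39.6% of all genes). The 7 were higher on both scales: Rab5a by 0.51, Rab22a by 0.42, Rab20 by 0.42, Rab11a and Rab32 by 0.25, Rab8b by 0.15 and Rab1a by 0.14, with limma adjusted p-values from 8.3e-07 (Rab5a) to 0.010 (Rab1a). The largest falls were Rab7b by 3.05, Rab3d by 2.26, Rab34 by 1.61, Rab6b by 1.56, Rab27a by 1.43 and Rab13 by 1.35, lower on both scales as well. Rab6b averaged 0.869 TPM with LPS, so its fall is a description. Without the 5 genes that averaged under 1 TPM with LPS, 7 of 38 were higher and 25 lower in TPM. Rab5a, Rab11a and Rab22a had LPS ranges wholly above the CpG ranges, and 23 genes had them wholly below, against 8.01% and 62.1% of all genes.

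Most regulators of Rabs fell with LPS in TPM, as most genes did, and single genes rose; every regulator and effector named here for LPS kept its direction relative to the median gene. Of 37 GEF genes tested 3 rose with LPS and 31 fell in TPM, beside 14.4% and 72.1% of all genes. Relative to the median gene 16 (43.2%) rose and 14 (37.8%) fell, where all genes gave 39.4% and 38.8%. Rabgef1, which activates Rab5, had a median of 30.9 TPM unstimulated and 87.6 TPM with LPS and rose by 1.57 (2.38 relative to the median gene). The other rises were Dennd2d by 0.38 and Rab3ip, a Rab8 exchange factor, by 0.24. The deepest falls were Trappc1 (-2.19), Madd (-2.08), which activates Rab3 and Rab27, and Rin3 (-2.05), a Rab5-family exchange factor. With CpG 0 of 37 GEF genes rose and 11 (29.7%) fell, beside 15.2% and 20% of all genes, with Rin3 (-1.46), Madd (-0.61) and Dennd2a (-0.46) most; limma's adjusted p was under 0.05 for each gene named.

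Of 33 GAP genes 2 rose with LPS and 29 fell in TPM, beside 14.4% and 72.1% of all genes. Tbc1d9 rose by 0.95 and Rabgap1l by 0.56, while Tbc1d17 (-2.32), Sgsm2 (-1.96) and Tbc1d8 (-1.91) fell most. Relative to the median gene 9 (27.3%) rose and 18 (54.5%) fell, where all genes gave 39.4% and 38.8%. With CpG Tbc1d9 rose by 0.55 and 10 GAP genes fell, Tbc1d10c (-1.09), Tbc1d16 (-0.70) and Sgsm2 (-0.68) most. Of all genes 15.2% rose and 20% fell with CpG. In the prenylation and GDI list of 7 genes, Chm, the escort protein that presents Rabs for prenylation, rose by 0.23 with LPS. The other 6 fell, as 72.1% of all genes did, among them the geranylgeranyl transferase subunit Rabggta (-1.22) and Chml (-0.98). With CpG Rabggtb rose by 0.24, and Rabac1 and Gdi2 fell by 0.21 and 0.20.

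Of 42 effector genes 6 (14.3%) rose with LPS and 33 (78.6%) fell, beside 14.4% and 72.1% of all genes (15 or 35.7% and 19 or 45.2% relative to the median gene, where all genes gave 39.4% and 38.8%). Rab11fip1, a Rab11 effector, went from a median of 14.2 TPM to 77.7 TPM and rose by 2.38. Eea1, the Rab5 effector that tethers early endosomes, went from 19.6 to 53.2 TPM and rose by 1.38, and Ankfy1, another Rab5 effector, rose by 0.89. In the same list Rab11fip5 (another Rab11 effector, 77.6 to 6.84 TPM, -3.25), Appl2 (-2.94), a Rab5 effector, and Plekhm1 (-2.30), a Rab7 effector, fell most. With CpG 5 rose and 14 fell, beside 15.2% and 20% of all genes. Rab11fip1 (0.57), Eea1 (0.42) and Micall2 (0.29) were at one end and Rab11fip5 (-0.79), Appl2 (-0.77) and Plekhm1 (-0.69) at the other.

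Between genotype labels 3 Rab genes passed, all in the Lum-/- label against wild type (2.53% of all genes tested were higher and 5.87% lower). Rab7b was lower by 0.48 (SE 0.10, limma adjusted p of 0.010), in 5 of 5 pairs of libraries of the same treatment. Rab4a was lower by 0.60 (SE 0.13), also in 5 of 5 pairs. That difference is a description, since Rab4a was near its floor in the Lum-/- label. Both LPS libraries of that label list it at 0, and the CpG library without protein had 0.439 TPM. Rab8b was higher by 0.17 (SE 0.05, limma adjusted p of 0.043), also in 5 of 5 pairs. For Rab7b, the LPS libraries labelled Lum-/- had 2.33 and 2.63 TPM, wild type 4.14 to 5.56 TPM, and the Bgn-/- label 5.29 and 6.33 TPM; with CpG they had 34.2 and 34.4 TPM, 40.5 to 45.5 TPM, and 48.9 and 54.4 TPM. With all 21 libraries Rab4a alone passed, as did 2.62% of all genes, and Rab7b did not (limma adjusted p of 0.19). Rab4a's call was lost without the CpG library labelled Lum-/- without protein (limma adjusted p of 0.065), Rab7b's without the LPS library of that kind (0.080), and Rab8b's without each of 16 of the 19 in turn (up to 0.16). The mast cell gene Cma1 was at 0.572 to 3.55 TPM in all libraries of both knockout labels and at 20.5 TPM or more in 8 of the 9 wild-type libraries, the untreated one having 1.03 TPM, and its part in these differences was not tested.

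No Rab gene passed between the Bgn-/- label and wild type, where limma called 0.289% of all genes higher and 0.442% lower; 4 Rab genes had an unadjusted p under 0.05. Their differences ran from -0.33 ± 0.15 (Rab3a) to 0.28 ± 0.10 (Rab31), and Rab7b was higher by 0.27 (limma adjusted p of 0.33), in 5 of 5 pairs. Standard errors were 0.04 to 0.19 over the 43 genes, which limits the differences that could be detected.

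With added lumican and with added biglycan no Rab gene and no other gene passed an adjusted p of 0.05 in limma (0 called, 0.0% of all genes), with 5 and 4 Rab genes at an unadjusted p under 0.05. With lumican the differences ran from -0.42 ± 0.19 (Rab27a) to 0.24 ± 0.14 (Rab34), the smallest adjusted p being 0.21 for Rab5c (-0.17, lower in 5 of 5 pairs). With biglycan they ran from -0.27 ± 0.12 (Rab39) to 0.25 ± 0.14 (Rab34), the smallest adjusted p being 0.29 for Rab8a (0.16, higher in 5 of 5 pairs).

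The difference between LPS and CpG passed no test of its dependence on the genotype label, for Rab genes or any other gene, in limma's interaction terms (0 called, 0.0% of all genes; 3 Rab genes at an unadjusted p under 0.05 for each label). The Lum-/- label minus wild type ran from -0.43 ± 0.18 (Rab7b) to 0.57 ± 0.23 (Rab4a), and the Bgn-/- label minus wild type from -0.78 ± 0.34 (Rab27a) to 0.26 ± 0.13 (Rab5a). The Rab4a value is a description. Both LPS libraries labelled Lum-/- list Rab4a at 0, so the floor limits how far it could fall in that label. The standard errors here reached 0.34.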

How the data were processed

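The authors deposited 1 table of TPM per transcript for 21 libraries (89562 transcripts), made with bcl2fastq 1.8.4 and kallisto 0.44.0 on GRCm38 per the submitters' processing notes, from a stranded kit per the labels' protocols; the strand setting and transcript set are not given in the sources used here. TPM keeps no depth, so no counting interval is given. Transcripts were summed per gene; of 6774 without a gene name 5424 were matched to GENCODE vM21 and 1350 (5350.5 to 7548.3 TPM per library) left out. limma 3.58.1 in R 4.3.3 (trend) fitted log2(TPM + 1) of 11774 genes with 7 genotype-and-protein strata and the stimulus over 19 libraries, with Benjamini-Hochberg adjustment over all genes and a threshold of 0.05; genotype-by-stimulus terms were added in a second fit. The code was tested on simulated data. Shared sequence was counted as 31-base words of GENCODE transcripts. Named were every Rab gene with its level, the 6 largest rises and falls per comparison, and up to 3 genes per direction of each regulator list; 1 gene of these lists is not reported here. The Rab genes, role groups and lists were chosen with earlier results of these data known. Alternatives were the scaling, pseudocount, filter, transcript choice, library set and design; 2 library sets with scaling were added after seeing the data.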

Additional observations from a re-analysis of the deposited data

Results flagged for a closer look

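Within a stimulus, 10 of 129 sets of libraries (43 genes by 3 stimuli) held 1 library far from the rest by Dixon's criterion, where chance flags about 1 in 20. The untreated wild-type library was the highest unstimulated one for 4 genes: Rab11b at 141 TPM (next 124), Rab27a at 17.7 TPM (next 9.83), Rab39 at 4.38 TPM (next 2.56) and Rab19 at 3.18 TPM (next 1.95). The unstimulated library labelled Lum-/- with lumican was highest for Rab13 at 12.9 TPM. In the libraries labelled Lum-/- without protein, Rab8b was at 96.1 TPM with CpG and Rab27a at 3.35 TPM with LPS, each the highest of its 7. Among the other LPS libraries, Rab4b was highest in wild type with lumican (34.4 TPM), Rab19 in wild type with biglycan (0.719 TPM) and Rab33b in the Bgn-/- label with biglycan (16.2 TPM).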

How the results depend on the processing

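The scale decides the direction of many Rab genes under LPS. Median-of-ratios scaling gave 22 genes higher and 16 lower with LPS, with the same counts over all 21 libraries and 22 and 17 also without the untreated wild-type library. Against CpG it gave 24 and 14 under each of those library sets, and quantile normalization gave 15 and 18. Counts in this section for which no share of all genes is given, here or above, describe the Rab genes only. They cannot be set against all genes. Scaled log2 differences that turned positive with LPS were Rab7 0.40, Rab5c 0.76, Rab10 0.37, Rab14 0.14, Rab18 0.76, Rab11b 0.33, Rab2a 0.52, Rab8a 0.18, Rab6a 0.58, Rab35 0.41, Rab9 0.59, Rab43 0.17, Rab28 0.029, Rab33b 0.49 and Rab2b 0.067. Against CpG they were Rab7 0.44, Rab10 0.25, Rab14 0.24, Rab18 0.72, Rab11b 0.40, Rab2a 0.60, Rab12 0.76, Rab8a 0.16, Rab6a 0.49, Rab35 0.47, Rab21 0.77, Rab43 0.42, Rab29 0.33, Rab28 0.14, Rab33b 0.60 and Rab2b 0.32. Quantile normalization gave positive differences for Rab6a 0.11, Rab35 0.043, Rab9 0.36, Rab43 0.019, Rab28 0.019, Rab33b 0.50, Rab2b 0.27, Rab23 0.076 and Rab30 0.052 with LPS, and Rab2a 0.079, Rab12 0.25, Rab6a 0.048, Rab35 0.14, Rab21 0.46, Rab43 0.29, Rab29 0.27, Rab28 0.13, Rab33b 0.62, Rab2b 0.50, Rab23 0.20, Rab39 0.23, Rab19 0.10 and Rab30 0.43 against CpG. The most abundant transcript turned Rab22a to -0.028. The genes higher with LPS numbered 5 in a fit of genotype and 9 treatments over 21 libraries and 5 without wild type. With CpG 25 genes passed over all 21 libraries (21 lower), 10 with a minimum of 5 TPM (6 lower, 36 genes tested), and 1 without wild type (0 higher, 1 lower); 1 was higher with 9 treatments and 2 were without the Lum-/- label. Between the Lum-/- label and wild type 1 gene passed over all 21 libraries, scaled or not. The cause was not tested.

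Leaving out each of the 19 libraries in turn gave 37 to 40 genes called with LPS (6 to 8 higher, 31 to 32 lower), 14 to 18 with CpG (2 to 4 higher, 12 to 14 lower), 36 to 37 for LPS against CpG (7 to 7 higher, 29 to 30 lower), 1 to 4 for the Lum-/- label and 0 to 0 for the Bgn-/- label, each added protein and both interactions. No paired analysis was possible because each combination has 1 library and the labels carry no replicate numbers to block on; the strata of the fit and the counted pairs match libraries by genotype and protein, or by treatment, instead. TPM gives no depth, so the error of low genes such as Rab4a and Rab3a is unknown.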

Other observations

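The 15 Rab genes under 1 TPM include the Rabs of epithelia, neurons and platelets. Rab33a averaged 0.803 TPM and was the only one with a median above 1 TPM in any stimulus (0.542 TPM unstimulated, 1.17 TPM with CpG and 0.942 TPM with LPS). Rab38, the melanosomal relative of Rab32, averaged 0.385 TPM, Rab44 0.324 TPM, Rab37 0.315 TPM, Rab26 0.258 TPM, Rab25 0.249 TPM, Rab27b 0.215 TPM, Rab15 0.147 TPM, Rab3b 0.123 TPM and Rab39b 0.101 TPM. Rab36 (0.0899 TPM) and Rab42 (0.0630 TPM) are listed at 0 in all 7 LPS libraries, and Rab40b (0.0783 TPM), Rab9b (0.0600 TPM) and Rab3c (0.0454 TPM) were low throughout.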
